A study of Homo sapiens with 4 samples.

Results

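The AP-1 and immediate early genes described here are JUN, JUNB, JUND, FOS, FOSB, FOSL2, EGR1, IER2, DUSP1 and KLF6. They were chosen by symbol, and each of the 10 was read by 1 probe set that carries only that symbol, out of 18417 named genes on the array. JUN was put on the list because it was higher after PSF knockdown, so its difference between the siPSF and siControl arrays is a description of how it was chosen and not a finding. The data were 4 Affymetrix whole-transcript arrays of total RNA from human prostate cancer cells, 1 array for each group. LNCaP, an androgen-responsive line, had been held for 24 h in medium free of phenol red, with 2.5% charcoal-stripped serum. LTAD, a subline of LNCaP obtained by prolonged androgen deprivation, grew in such medium with 10% stripped serum and was read untransfected, after a control siRNA (siControl) and after siRNA against PSF (siPSF), the RNA-binding protein encoded by SFPQ. The labels give neither the time after transfection nor the number of siRNAs. No group had a replicate, so no value below carries an error or a p-value, no test across samples was possible, and the precision is limited by that number of arrays. In bulk RNA, fewer cells that express a gene and less RNA per cell cannot be told apart.

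AP-1 is a dimer of basic leucine zipper proteins, in which a JUN protein pairs with another JUN protein, a FOS protein or an ATF protein and binds short palindromic DNA sites. Many of its genes are immediate early genes, which are transcribed within minutes of a growth factor or stress signal through factors already present in the cell, and whose messages decay quickly. FOS and EGR1 are classically driven by MAP kinases acting on SRF and its ternary complex partners, JUN by JNK acting on JUN and ATF2 already bound at its promoter, and the phosphatase DUSP1 switches the same kinases off.

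Levels and differences below are on the log2 scale after quantile normalization of the 4 arrays, unless called deposited. The deposited array medians ran from 5.98 in siControl and 6.04 in siPSF to 6.91 in LNCaP and 7.20 in untransfected LTAD, and 10117 genes were kept because they read 7.23 or more, the median over genes and arrays, somewhere among the 4 arrays. SFPQ was lower with siPSF than with siControl, at 9.87 against 11.23, which is 2.58-fold. It was 1.93-fold lower than in untransfected LTAD, which read 10.82. Of the prostate luminal markers, 6 of 10 were named on the array, and all 6 were at or above 7.23 in LNCaP, untransfected LTAD and siControl and 5 in siPSF, where KLK3 read 7.11. No endothelial marker reached that value in any array, and the other marker lists had at most 2 genes at it in an array. Untransfected LTAD stood apart from both transfected LTAD arrays in single markers. KLK3, the gene of prostate-specific antigen, read 11.06 against 7.47 in siControl, and LUM, a matrix proteoglycan of fibroblasts, read 8.80 against 3.21. Their lists did not move as wholes. In siControl against untransfected LTAD, 2 luminal markers were above 0, with EPCAM at 0.90, and 4 were below. The other fibroblast markers ran from -0.42 for PDGFRA to 0.50 for DCN, and COL1A1, the only other one kept, was at -0.12. Above 0 were 55.3% of the kept genes. The part of these differences in the values of the members was not tested. The siPSF readings of the members are compared with both LTAD arrays, those of most pathway list genes with siControl only.

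The promoters of 5 members are shown first because they differ in the JUN and CREB-type sites they carry and because their genes ran from the highest to nearly the lowest siPSF difference of the list. Each is the 250 bases before the gene's start in RefSeq (GRCh38.p14), 5′ to 3′ on the gene's strand, at chr1:58784048-58784297 (minus strand) for JUN, chr10:3785210-3785459 (minus) for KLF6, chr5:172771196-172771445 (minus) for DUSP1, chr19:18281623-18281872 (minus) for JUND and chr14:75278578-75278827 (plus) for FOS. Capitals mark every match, on either strand, to TGACATCA, the variant AP-1 site known from the JUN promoter, to the cyclic AMP response element TGACGTCA, or to its shorter core TGACG.
JUN: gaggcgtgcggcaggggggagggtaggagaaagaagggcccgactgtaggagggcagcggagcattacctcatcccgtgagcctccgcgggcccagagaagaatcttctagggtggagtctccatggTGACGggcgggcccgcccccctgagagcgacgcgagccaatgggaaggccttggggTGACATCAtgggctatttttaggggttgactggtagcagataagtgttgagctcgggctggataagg
KLF6: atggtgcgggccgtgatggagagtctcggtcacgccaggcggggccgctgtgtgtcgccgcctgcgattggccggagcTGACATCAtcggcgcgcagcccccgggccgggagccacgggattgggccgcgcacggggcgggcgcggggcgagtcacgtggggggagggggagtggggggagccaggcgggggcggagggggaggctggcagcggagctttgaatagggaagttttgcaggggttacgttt
DUSP1: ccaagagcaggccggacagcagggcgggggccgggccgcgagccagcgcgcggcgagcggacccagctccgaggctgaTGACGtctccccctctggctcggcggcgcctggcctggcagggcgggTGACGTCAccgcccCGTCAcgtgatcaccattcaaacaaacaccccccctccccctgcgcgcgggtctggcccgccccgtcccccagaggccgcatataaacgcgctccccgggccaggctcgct
JUND: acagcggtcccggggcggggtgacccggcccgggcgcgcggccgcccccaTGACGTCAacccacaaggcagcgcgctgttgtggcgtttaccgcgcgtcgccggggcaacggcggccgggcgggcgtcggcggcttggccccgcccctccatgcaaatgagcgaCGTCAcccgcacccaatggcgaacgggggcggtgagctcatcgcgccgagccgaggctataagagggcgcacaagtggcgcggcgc
FOS: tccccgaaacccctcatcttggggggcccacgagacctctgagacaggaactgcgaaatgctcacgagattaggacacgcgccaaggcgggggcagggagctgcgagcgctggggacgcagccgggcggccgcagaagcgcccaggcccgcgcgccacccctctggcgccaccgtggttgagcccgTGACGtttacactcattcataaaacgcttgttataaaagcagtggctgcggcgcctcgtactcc

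JUN carried TGACATCA from 67 to 60 bases before its start, and KLF6 carried the same 8 letters from 172 to 165 bases before its own. Among all 35116 RefSeq promoter windows of this length, 2.37% held that site. DUSP1 and JUND held the full TGACGTCA, from 125 to 118 and from 200 to 193 bases before the start, a site found in 1.65% of all windows. FOS held only the core TGACG, from 64 to 60 bases before its start. The core lies within the full element and was in 9 of the 10 members' windows, all but that of KLF6, and in 21.2% of all windows. The canonical AP-1 site TGACTCA was in none of the 10 windows and in 4.20% of all. EGR1 was the only member with a CArG box, the SRF site, in its window, where it had 2. Of all windows, 1.16% held any. Bases further from the start were not searched, so a CArG box outside the window, in FOS or any other member, would not be seen. GGGCGG, the GC box, was in 8 of the 10 windows and in 42.6% of all, and TATAAA in those of JUNB, FOS, FOSB and DUSP1 and in 10.7% of all. The members' windows were rich in G and C, from 62.0% for JUN to 74.8% for JUND. These matches describe the letters only.

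JUN, the main transactivating JUN protein, read 9.03 in LNCaP, 9.28 in untransfected LTAD, 8.91 in siControl and 10.08 in siPSF. The siPSF array was thus the highest, and the other 3 arrays lay within 0.37 of each other. With siPSF, JUN was 2.25-fold above siControl (1.17), the sixth highest difference among the kept genes, and 1.74-fold above untransfected LTAD (0.80). The deposited JUN levels were 9.36, 9.78, 8.50 and 9.67 in the same order of arrays. They gave the same difference from siControl (1.17) but put siPSF slightly below untransfected LTAD (-0.10), on a scale where the median kept gene differed by -0.90 between those arrays. With each array centred on its median, JUN was higher than untransfected LTAD by 1.05. Against LNCaP, untransfected LTAD had JUN higher by 0.25 and siControl had it at -0.12. After median centring both LTAD arrays were above LNCaP, by 0.13 and 0.07.

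JUNB, a JUN protein that often restrains growth, was lower in both transfected arrays and close in both untransfected ones. Its levels were 8.83 in LNCaP, 8.71 in untransfected LTAD, 8.02 in siControl and 8.22 in siPSF. SiControl lay 1.61-fold below untransfected LTAD (-0.69), while siPSF and siControl differed by 0.20. JUND, the JUN protein that most cells express steadily, read 8.32 in LNCaP, 8.79 in untransfected LTAD, 8.81 in siControl and 8.86 in siPSF. LNCaP was the lowest, and the 3 LTAD arrays lay within 0.06 of each other, with siPSF at 0.05 from siControl. The siPSF minus siControl difference was 0.20 for JUNB and 0.05 for JUND, beside 1.17 for JUN, which was chosen for it, so no ranking is read from these values.

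**Figure D1:**
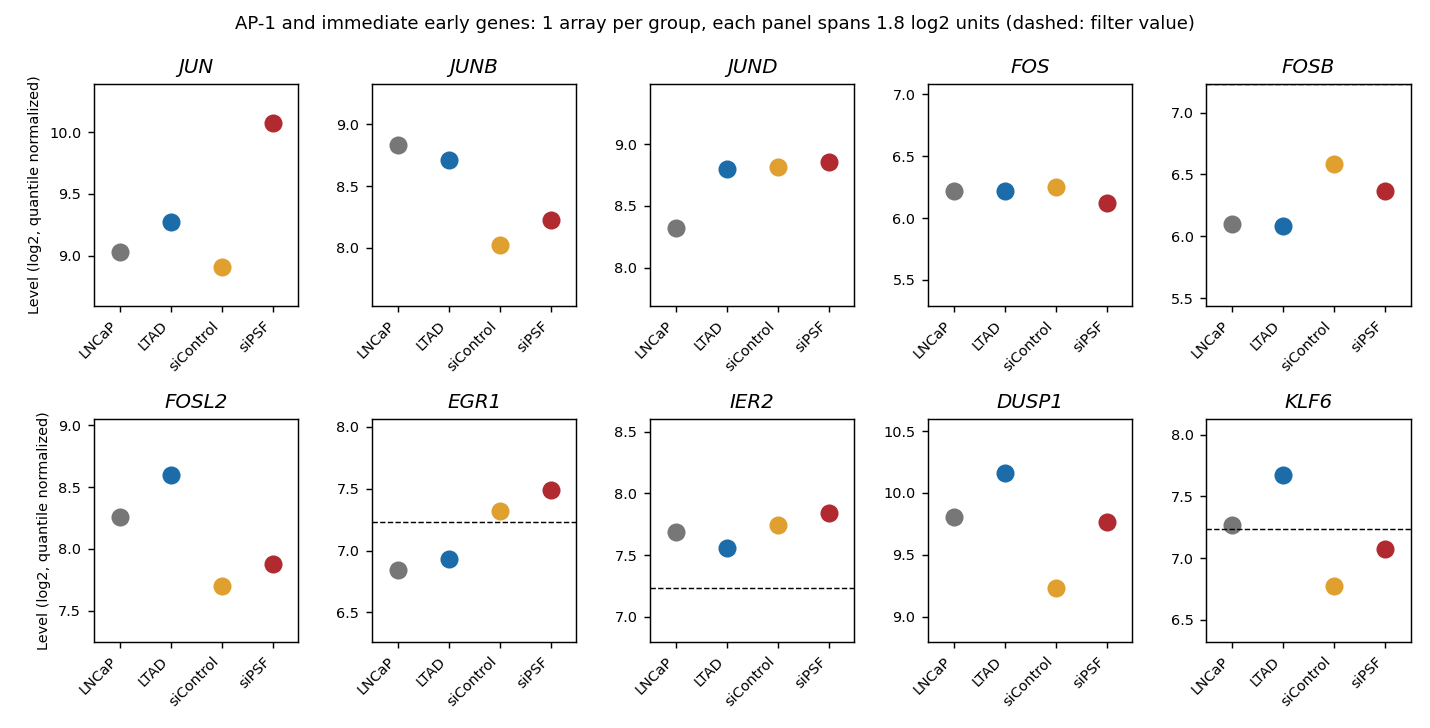
Quantile-normalized log2 level of each of the 10 genes (vertical axis) in the LNCaP, untransfected LTAD, siControl and siPSF arrays (horizontal axis), with 1 point for 1 array and every panel spanning the same range. JUN is highest with siPSF at 10.08, while JUNB, FOSL2, DUSP1 and KLF6 sit lower in both transfected arrays than in both untransfected ones, and FOS stays between 6.12 and 6.25.

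FOS proteins cannot pair with each other and need a JUN partner. FOS read 6.22 in LNCaP, 6.22 in untransfected LTAD, 6.25 in siControl and 6.12 in siPSF. FOSB read 6.10, 6.08, 6.59 and 6.37 in the same arrays. Neither reached 7.23 in any array, so these levels were not shown to be above background, no fold is given, and the list's name rests for these arrays on its other 8 genes. FOSB was higher in both transfected arrays than in both untransfected ones, and its siPSF level differed from siControl by -0.22. FOSL2, which encodes FRA2, was the FOS family member at or above the filter value in all 4 arrays. Its levels were 8.26 in LNCaP, 8.60 in untransfected LTAD, 7.70 in siControl and 7.87 in siPSF. FOSL2 was lower in both transfected arrays, with siControl 1.86-fold below untransfected LTAD (-0.90), and siPSF differed from siControl by 0.17. FOSL1, which encodes FRA1 and belongs to the wider AP-1 list, read at most 7.22 in any array, just under the filter value. JUN, JUNB, JUND and FOSL2 were therefore the AP-1 subunits of these families that read at or above the filter value in every array.

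EGR1, a zinc finger factor induced through SRF, read 6.84 in LNCaP, 6.94 in untransfected LTAD, 7.32 in siControl and 7.49 in siPSF. It passed the filter only through the transfected arrays, which both lay above both untransfected arrays, and siPSF differed from siControl by 0.17. IER2, a short nuclear immediate early protein, was the flattest member past the filter. It read 7.69 in LNCaP, 7.56 in untransfected LTAD, 7.75 in siControl and 7.84 in siPSF, a range of 0.28 over the arrays.

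DUSP1, the phosphatase that inactivates JNK, p38 and ERK, was the member next to JUN in the knockdown comparison. It read 9.80 in LNCaP, 10.16 in untransfected LTAD, 9.23 in siControl and 9.76 in siPSF. With siPSF it was 1.44-fold above siControl (0.53), rank 119 from the highest of 10117 kept genes, but below untransfected LTAD (-0.40). Its siControl level was the lowest of the 4, 1.91-fold under untransfected LTAD. KLF6, a zinc finger factor that acts as a growth suppressor in prostate, read 7.27 in LNCaP, 7.68 in untransfected LTAD, 6.77 in siControl and 7.08 in siPSF. It passed the filter only through the untransfected arrays. Its siPSF reading was higher than siControl by 0.30 and lower than untransfected LTAD (-0.60), with both transfected arrays under the filter value.

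In siPSF against siControl, 8 of the 10 genes were above 0 and FOS and FOSB below, with a median of 0.17, and 8 were also above 0 on the deposited values but 7 after median centring, where JUND turned to -0.04. Of all kept genes 46.9% were above 0, with a median of -0.02. JUN was the single member at least 2-fold higher and none was 2-fold lower, where 0.0890% of the kept genes were past 2-fold upward and 0.722% downward. Because the knockdown contrast chose JUN, nothing is read from that count. The count above 0 also includes JUN. Without JUN, 7 of the other 9 genes were above 0, and the 9 ran from -0.22 to 0.53, with a median of 0.17. Against untransfected LTAD in place of siControl, 5 of the 10 were above 0 and 5 below, with a median of -0.02 and none at 2-fold, where 5.40% of the kept genes were past 2-fold upward, 5.20% downward and 53.9% above 0. JUN (0.80), EGR1 (0.55), FOSB (0.29), IER2 (0.28) and JUND (0.06) were above 0 there. JUNB, FOSL2, DUSP1 and KLF6, above 0 against siControl, were below 0 against untransfected LTAD, also after median centring. On the deposited values none of the 10 was above 0 against untransfected LTAD, as was the case for all but 5.79% of the kept genes. Both comparisons share the siPSF array.

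**Figure D2:**
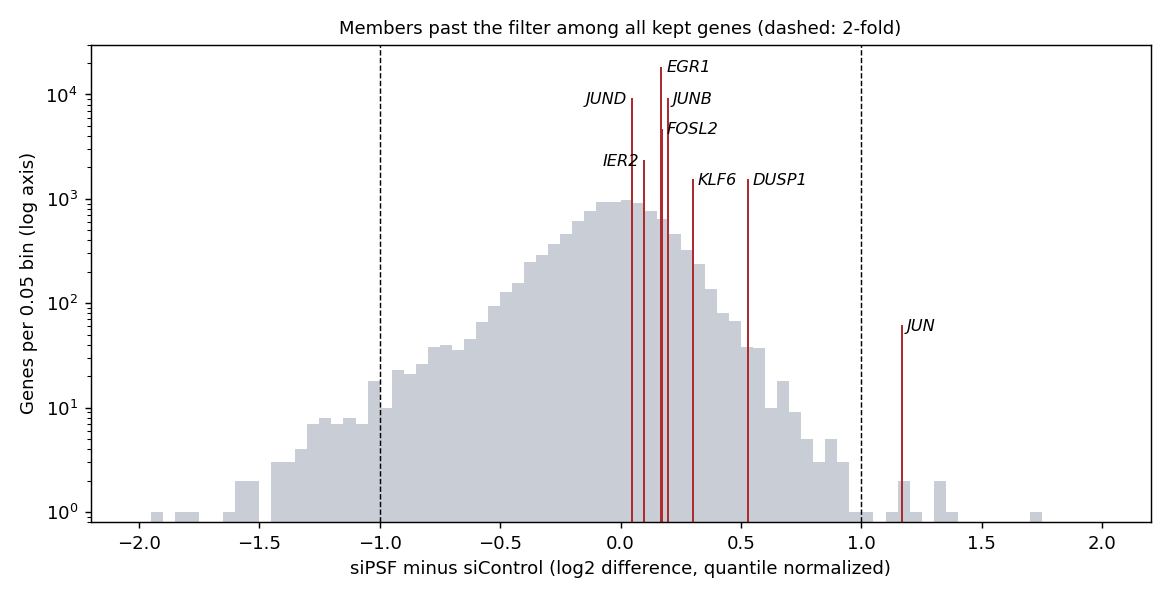
Number of kept genes (log axis) in each bin of the siPSF minus siControl log2 difference, with vertical lines for the 8 members past the filter; the height of a line serves only to place its name. JUN lies at 1.17, beyond the 2-fold mark, DUSP1 at 0.53, and the other 6 between 0.05 and 0.30.

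The members are short genes. Their RefSeq spans ran from 1.83 kb for JUNB to 24.5 kb for FOSL2, with a median of 3.61 kb, against 28.8 kb over the kept genes. The 4558 kept genes no longer than FOSL2 had a median span of 9.75 kb, so they were not matched to the members in length. Their median siPSF minus siControl difference was 0.01, against -0.02 for all kept genes. The part of gene length in the members' values was not tested. This length split was added after the members' values were seen.

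Between untransfected LTAD and LNCaP, which asks how the androgen-deprived line differs from its parent, no member was 2-fold apart. Of the kept genes 2.20% were past 2-fold upward in LTAD and 3.43% downward, so a count of 0 in 10 is near the background. The differences ran from -0.13 for IER2 to 0.48 for JUND, with 7 of 10 above 0 and a median of 0.17, against 50.5% above 0 and a median of 0.00 for all kept genes. KLF6 was higher in LTAD by 0.41, DUSP1 by 0.36, FOSL2 by 0.34 and JUN by 0.25. On the deposited values all 10 were above 0, with a median of 0.38, where 70.7% of the kept genes were above 0 and their median was 0.18. Line and serum conditions cannot be told apart here.

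The siControl and untransfected LTAD arrays show how far the members differed in LTAD cells without PSF knockdown. In siControl against untransfected LTAD, DUSP1 differed by -0.93, KLF6 by -0.90, FOSL2 by -0.90 and JUNB by -0.69, and FOSB was higher by 0.51 and EGR1 by 0.38. JUN differed by -0.37, IER2 by 0.19, FOS by 0.03 and JUND by 0.02. No member reached 2-fold and 5 of 10 were above 0, where 6.34% of the kept genes were past 2-fold upward, 4.36% downward and 55.3% above 0. In both transfected arrays JUNB, FOSL2, DUSP1 and KLF6 lay below both untransfected arrays and JUND, FOSB, EGR1 and IER2 above them, which is 4 of 10 each way, against 23.7% and 35.5% of all 18417 named genes. FOSB was under the filter value throughout, and EGR1 and KLF6 passed it only through the arrays where they were high, so nothing is read from these counts. After median centring DUSP1 left the lower group, with siPSF above LNCaP. On the deposited values all 10 were lower in siControl than in untransfected LTAD, where the median kept gene differed by -0.87. There the same 4 genes remained furthest down, from -1.65 for JUNB to -2.01 for KLF6, and JUND, FOSB, EGR1 and IER2 lay between -0.90 and -0.74. Against LNCaP, siControl gave -0.81 for JUNB, -0.57 for DUSP1, -0.56 for FOSL2, -0.49 for KLF6 and -0.12 for JUN. It gave 0.49 for JUND, 0.49 for FOSB, 0.48 for EGR1, 0.06 for IER2 and 0.03 for FOS. No member was at 2-fold there and 5 of 10 were above 0, where 2.68% of the kept genes were past 2-fold upward, 2.95% downward and 56.4% above 0. On the deposited values none of the 10 was above 0 against LNCaP, where 5.87% of the kept genes were. The same siControl array enters all of these differences.

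Heat shock genes, a sign of stress or handling, read higher in both transfected arrays than in untransfected LTAD after quantile normalization. Of the 8 named genes of that list, 8 were above 0 in siControl against untransfected LTAD, where 55.3% of the kept genes were, with a median of 0.52. HSPH1, a chaperone of the HSP110 family, was at 1.04 and was the only gene of the 8 past 2-fold, and none was in siPSF against untransfected LTAD. The list's median on the deposited values was -0.17, against -0.87 for all kept genes, and HSPH1 was at 0.22. Between siPSF and siControl 7 of the 8 were below 0, with a median of -0.11, where 46.9% of the kept genes were above 0. In siControl against LNCaP 7 of the 8 were above 0, with a median of 0.29, where 56.4% of the kept genes were. The part of such stress in the members' values was not tested.

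**Figure D3:**
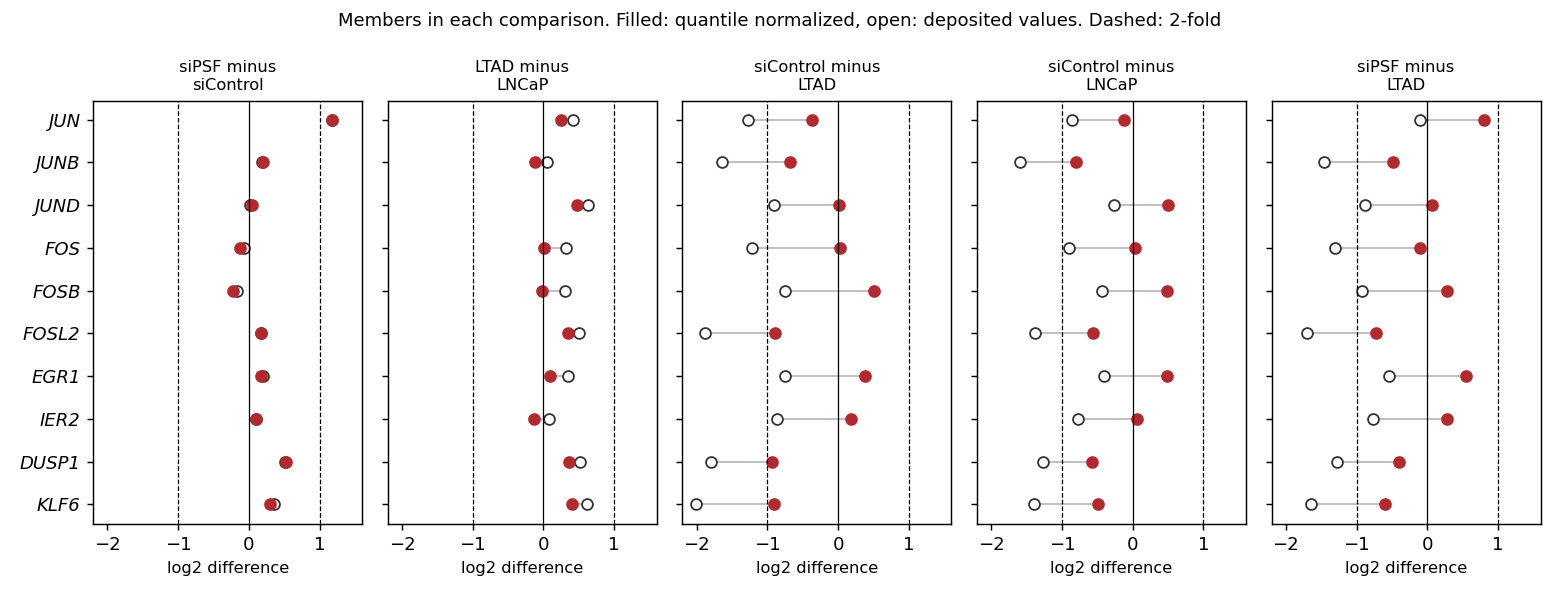
Log2 difference (horizontal axis) of each of the 10 genes in 5 comparisons of single arrays, as filled points after quantile normalization and as open points from the deposited values. The points coincide for siPSF minus siControl, with JUN at 1.17, and part between transfected and untransfected arrays, with JUN at 0.80 or -0.10 for siPSF minus untransfected LTAD.

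Other genes of the pathway were read from 7 lists, all picked with earlier results of these arrays known. In siPSF against siControl, 46.9% of the kept genes were above 0, with a median of -0.02. Past 2-fold were 0.0890% upward and 0.722% downward, so a list with none at 2-fold is near the background. Of 18 dimer partners of AP-1, 16 were named and 8 kept. None was 2-fold apart in siPSF against siControl, with 5 above 0, 3 below and a median of 0.07. JDP2, a repressor that pairs with JUN, was at 0.21, ATF2, the partner of JUN at its own promoter, at -0.16, and the antioxidant factor NFE2L2 at -0.25. ATF3, a stress-induced partner, read between 5.85 and 6.64 and was under the filter value in every array. The kinases and SRF cofactors upstream of these genes had 21 kept of 26, 8 above 0 and 13 below, with a median of -0.06 and none at 2-fold. MAPK8, which encodes JNK1, differed by 0.00, MAP2K4, a JNK activating kinase, by -0.35 and SRF by 0.07. The ubiquitin ligase components that degrade JUN proteins had 6 kept of 8, none at 2-fold, with a median of 0.13 and COP1 at 0.21.

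Immediate early genes outside the member list had 20 kept of 33, of which 15 were above 0 with siPSF and 5 below. Their median was 0.17 and none was at 2-fold, where 46.9% of all kept genes were above 0. NFKBIA, the inhibitor of NF-kappa B, was higher by 0.73, and its levels were 10.73 in LNCaP, 10.43 in untransfected LTAD, 9.32 in siControl and 10.05 in siPSF. RHOB, a small GTPase gene of the early response, was higher by 0.67, at 9.79, 10.36, 9.45 and 10.11 in the same arrays. Like DUSP1, both were lowest in siControl and lower with siPSF than in untransfected LTAD, at -0.38 and -0.25, the latter 0.06 after median centring. MYC differed by -0.29, and was higher in siControl than in untransfected LTAD by 1.13, or by 0.36 and thus under 2-fold on the deposited values. ZFP36, whose protein speeds the decay of early messages, differed by -0.03. Against untransfected LTAD in place of siControl, siPSF had 11 of these 20 genes above 0 and 9 below, with a median of 0.02. Of all kept genes 53.9% were above 0 there, with a median of 0.05.

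AP-1 target genes had 6 kept of 23, with 5 above 0 in siPSF against siControl, where 46.9% of all kept genes were. Their median was 0.27 and none was at 2-fold. HMOX1, heme oxygenase 1, was higher by 0.65, VEGFA by 0.48 and CCND1, cyclin D1, by 0.26, and ITGA2, an integrin subunit, differed by -0.30. The collagenases and stromelysins MMP1, MMP3, MMP10 and MMP13, and the urokinase genes PLAU and PLAUR, were under the filter value in every array. VIM, vimentin, read 7.84 in LNCaP, 7.15 in untransfected LTAD, 9.03 in siControl and 9.31 in siPSF, higher in siControl than in untransfected LTAD by 1.88, with the untransfected reading under the filter value. That VIM difference was 0.87 on the deposited values, under 2-fold, against -0.87 for the median kept gene.

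Feedback genes of the MAP kinases had 9 kept of 13, with 3 above 0 and 6 below in siPSF against siControl. Their median was -0.16 and none was at 2-fold, where 46.9% of all kept genes were above 0. DUSP10, a phosphatase for JNK and p38, was higher by 0.69, and DUSP16, which also acts on JNK, by 0.35, while SPRED1, an inhibitor of RAS signalling, differed by -0.86 and SPRY1 by -0.51. Against untransfected LTAD, siPSF gave 0.14 for DUSP10, -0.83 for DUSP16, 0.26 for SPRED1 and -0.58 for SPRY1, so DUSP16 and SPRED1 changed sign. Between the lines, DUSP4 read 8.03 in LNCaP and 5.59 in untransfected LTAD (-2.43), and DUSP5, the nuclear ERK phosphatase, 7.96 and 6.71 (-1.25), with the LTAD readings under the filter value. The deposited values gave -2.06 for DUSP4 and -0.97, under 2-fold, for DUSP5. In siControl against LNCaP the differences were -1.63 and -0.61. DUSP2 read 7.61 in LNCaP, 8.89 in untransfected LTAD and 7.32 in siControl, so that its LTAD difference of 1.27 was not seen in the second LTAD array. DUSP16 was lower in siControl than in untransfected LTAD (-1.18) and SPRED1 higher (1.12). RPS6KA3, which encodes the ERK-activated kinase RSK2, read 9.97 in LNCaP, 7.89 in untransfected LTAD, 7.84 in siControl and 6.89 in siPSF, a difference of -2.08 between the lines and -0.95 with siPSF. MAP3K5, the stress kinase ASK1, read 9.26 in untransfected LTAD and 7.33 in siControl (-1.92), and MAP2K6, a p38 activator, 6.02 and 7.46 (1.44). The readings of MAP2K6 and SPRED1 in untransfected LTAD, of DUSP10 in siControl and of RPS6KA3 and SPRED1 in siPSF were below 7.23, the filter value. On the deposited values SPRED1 and MAP2K6 came to -0.03 and 0.24 in siControl against untransfected LTAD, against -0.87 for the median kept gene.

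**Figure D4:**
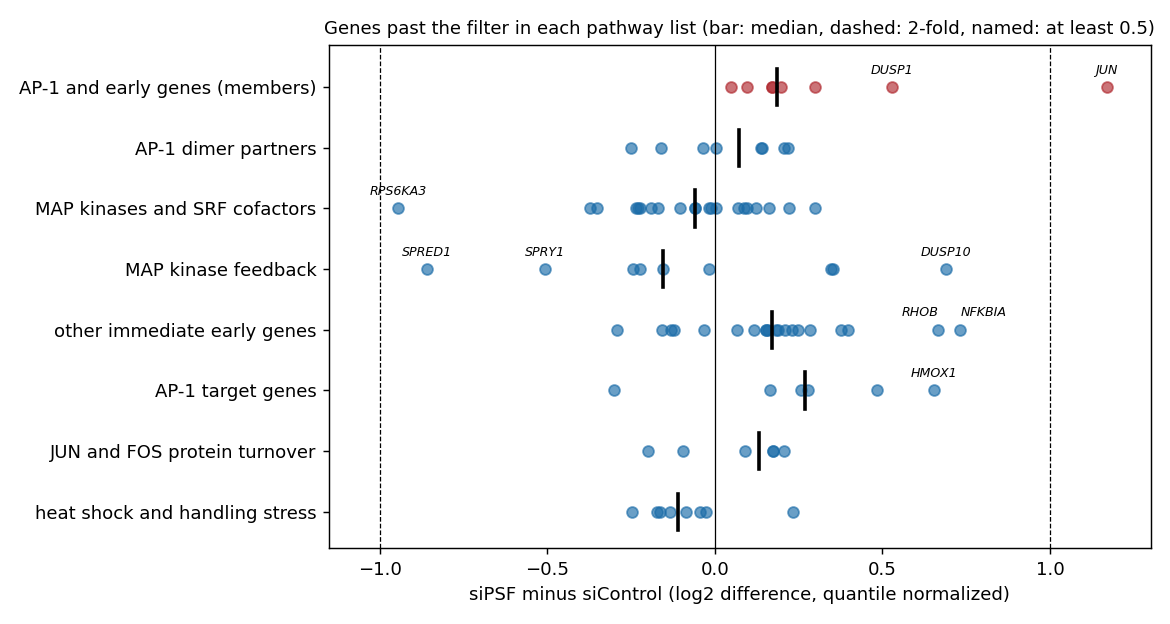
Log2 difference siPSF minus siControl (horizontal axis) of each kept gene in the member list and 7 pathway lists (rows), with the median of each list as a bar and dashed lines at 2-fold. JUN, which was chosen for this difference, is the single gene of these lists past 2-fold. NFKBIA at 0.73, DUSP10 at 0.69, RHOB at 0.67 and HMOX1 at 0.65 come next on the high side. RPS6KA3 at -0.95 and SPRED1 at -0.86 are the lowest.

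The genes whose pattern over the 4 arrays was most like that of JUN were found by the Euclidean distance between levels centred on each gene's mean, among 1689 other kept genes with a range of at least 1. PSPC1, which encodes a paraspeckle protein of the same family as PSF, was nearest, at a distance of 0.27. It read 9.33 in LNCaP, 9.39 in untransfected LTAD, 9.36 in siControl and 10.50 in siPSF. Next came PLAAT4 at 0.41, which reached the filter value only with siPSF, the integrin gene ITGA5 at 0.49, the matrix metalloproteinase gene MMP11 at 0.51 and the homeobox gene IRX5 at 0.56. With 4 points per gene, and JUN chosen for its siPSF level, this likeness is a description, and a high siPSF level of these genes follows from how they were found.

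**Figure D5:**
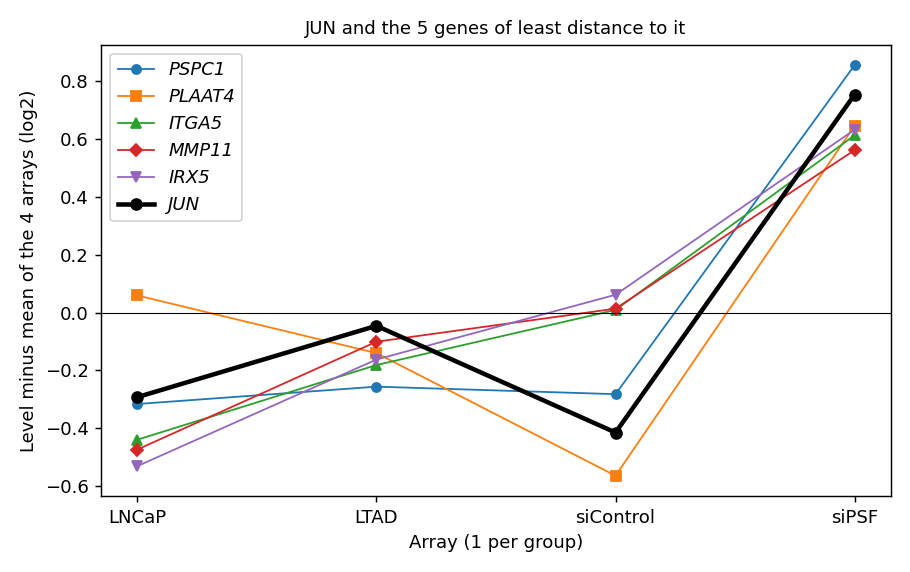
Quantile-normalized log2 level minus the gene's mean over the 4 arrays (vertical axis) for JUN (thick black line) and the 5 genes of least distance to it, in the 4 arrays (horizontal axis). The genes were selected for likeness to JUN; PSPC1 is the nearest at a distance of 0.27.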

How the data were processed

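RNA from 4 cell samples was read on 4 arrays. The deposited values are log2 levels of probe sets. Per the submitters' processing notes, the authors used RMA and Affymetrix Expression Console; the versions, and which arrays entered a normalization together, are not given in the sources used here. Their 4 columns were not on one scale, so they were quantile normalized here over all 33297 probe sets, in Python 3.11.15 with pandas 2.3.3. Names came from the platform annotation (19460 with 1 symbol, 1754 with several, 12083 unnamed), with symbols updated through 19429 Entrez IDs to RefSeq. A gene was read from its probe set with the highest mean, and kept at or above 7.23 in at least 1 array. A comparison is the log2 difference of 2 arrays, and at least 2-fold is called. Named genes were the members, SFPQ, up to 2 genes of each list in each direction at 2-fold or more, and the 5 nearest to JUN; other list genes were named after their values were seen. The members and lists were chosen with earlier results of these data known. Alternatives were other scales, filters, probe set rules and thresholds. The counting was tested on simulated data. Promoter matches used exact letters on both strands.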

Additional observations from a re-analysis of the deposited data

How the results depend on the processing

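JUN, chosen for that difference, was higher with siPSF than with siControl by 1.17 on the deposited values and 1.11 with median centring; its single probe set and levels above the filter value leave the other settings without effect on it. The member counts at 2-fold of siPSF against siControl and of LTAD against LNCaP were the same in all 7. On the deposited values the members at least 2-fold lower came to 5 in siControl against LTAD, 4 in siControl against LNCaP and 4 in siPSF against LTAD, from 0 each, with medians of -1.25, -0.88 and -1.10. In these comparisons 4791, 2719 and 4989 genes were 2-fold lower on those values. The medians of the kept genes were -0.87, -0.69 and -0.90, and 7.04%, 5.87% and 5.79% of them were above 0, so nothing is read from these member counts. With median centring, JUN made 1 member at least 2-fold higher in siPSF against LTAD, where 902 genes were. At 1.5-fold the members lower were 4, 1 and 2 in those 3 comparisons, and 1 was higher in siPSF against LTAD. Of the 10117 kept genes 1184, 838 and 1317 were lower at that threshold, and 1574 were higher in siPSF against LTAD.

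Genes counted at 2-fold moved more, and higher is given before lower. For siPSF against siControl (9 and 73) they were 17 higher without a filter, 5 and 37 with the 75th percentile filter, 78 and 330 at 1.5-fold, and 38 lower with values under the filter raised to it. For LTAD against LNCaP (223 and 347) they were 355 higher on deposited values, 123 and 182 with the stricter filter, 671 and 916 at 1.5-fold, and 230 lower with raised values. For siControl against LTAD (641 and 441) they were 65 and 4791 on deposited values, 1245 and 286 with median centring, 324 and 278 with the stricter filter, and 1687 and 1184 at 1.5-fold. For siControl against LNCaP (271 and 298) they were 52 and 2719 on deposited values, 479 higher with median centring, 139 and 180 with the stricter filter, 1043 and 838 at 1.5-fold, and 169 higher with raised values. For siPSF against LTAD (546 and 526) they were 49 and 4989 on deposited values, 902 higher with median centring, 263 and 324 with the stricter filter, and 1574 and 1317 at 1.5-fold. A stricter filter leaves fewer genes to count and a lower threshold more; for the other changes the cause was not tested. No paired analysis was possible because each group held 1 array, and for the same reason no array could be left out as a replicate. Each member had 1 probe set, so readings of several probe sets could not be compared. No detection call was used, and FOS and FOSB, under the filter value in every array, are limited by signal over background.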

Other observations

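Some early response genes under the filter value in every array still read differently between arrays, with no detection call behind these readings. NR4A2, an orphan nuclear receptor, read 6.06 in LNCaP, 5.37 in untransfected LTAD, 4.25 in siControl and 4.91 in siPSF. SPRY4, an inhibitor of receptor kinase signalling, read 6.64, 6.48, 5.15 and 5.22 in the same order, and SGK1, a kinase induced by serum and glucocorticoids, 5.22, 6.30, 5.38 and 5.29. MAFF, a small MAF factor, read 5.44, 5.49, 5.89 and 6.31. On the quantile-normalized values SPRY4 and NR4A2 were lower in both transfected arrays than in both untransfected ones, as were 23.7% of all 18417 named genes. MAFF was higher in both, as were 35.5%. On the deposited values MAFF was instead lower in both, at 5.83, 6.24, 5.31 and 5.81 in the same order. These genes were named after their values were seen, so nothing is read from their order.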
